A study of Homo sapiens with 3 samples.

Results

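The narrow peaks of Idax binding were the autosomal sites under 600 bp wide in the peak list of Myc-tagged wild-type Idax. They were chosen by width alone, the list's end position minus its start, and 792 of the 16528 autosomal peaks (4.79%, 95% interval 4.47 to 5.13) met the limit. The whole list held 17089 peaks. The peaks they were set against were the 15209 autosomal peaks from 600 to under 2500 bp (92%), called middle-width peaks below. A further 527 were 2500 bp or wider.

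The study used chromatin immunoprecipitation with sequencing (ChIP-seq) in HEK293T, an established line derived from human embryonic kidney that makes the SV40 large T antigen. Stable lines carried wild-type Myc-Idax, its DNA-binding mutant Myc-IdaxDBM or an empty vector, and the same anti-c-Myc agarose gel was used on each. The labels do not give the promoter driving the constructs, the amount of protein made or whether a line was 1 clone. Peaks were detected over the empty-vector cells, and the design text gives 2 replicates per condition, while 1 list per construct was analysed here. No value below therefore has a replicate error.

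Idax, also named CXXC4, carries a CXXC zinc finger, a fold that binds DNA with unmethylated CpG. Such DNA is concentrated in CpG islands, which mark many promoters of vertebrate genes and can extend over a few nucleosomes. In ChIP-seq, a peak's width depends on the bound stretch, on fragment length and on how far the reads rise above the control. Sequence, CpG content and nearby genes of the narrow peaks were not analysed here, because no genome or annotation of hg19, the build of the lists, was used.

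The narrow peaks were concentrated just below the limit and were weak. Their widths ran from 275 bp to just under the limit, with a median of 553 bp (quartiles 508 and 578), and 422 of the 792 were 550 bp or wider. Only 22 were under 400 bp. All 792 together covered 0.426 Mb, 2.08% of the autosomal sequence under peaks. The limit did not fall at a gap in the widths, since 17 peaks were 1 bp under 600 bp and 15 were exactly at it.

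The 17 peaks just inside the limit had a median score of 62.9 (51.26 to 203.36), and the 15 just outside had one of 57.3 (50.84 to 259.72). The 2 of highest score on each side are named here, so their scores are not typical of peaks at the limit. On the inside, a peak of score 203.36 covered 133532621 to 133533219 of chromosome 12, and one of score 179.19 covered 114238540 to 114239138 of chromosome 13. On the outside, a peak of score 259.72 covered 57496211 to 57496810 of chromosome 16, and one of score 111.34 covered 160068730 to 160069329 of chromosome 1. The score is the authors' value from the peak caller. It comes from the same contrast as the width, so the scores below describe the narrow peaks and are not tested.

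Narrow peaks had a median score of 62.7 (quartiles 54.5 and 78.7), and middle-width peaks had a median of 230 (quartiles 119 and 402). The lowest score in both classes was 50.01, so most narrow peaks stood close to the bottom of the list. Scores under 100 were held by 695 of 792 narrow peaks (87.8%, 95% interval 85.3 to 90) and by 2913 of 15209 middle-width peaks (19.2%, 18.5 to 19.8). Only 5 narrow peaks (0.631%, 0.205 to 1.47) reached the autosomal median score of 225. On each of the 22 autosomes the median score of narrow peaks was under 100 and below that of the chromosome's middle-width peaks.

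**Figure D1:**
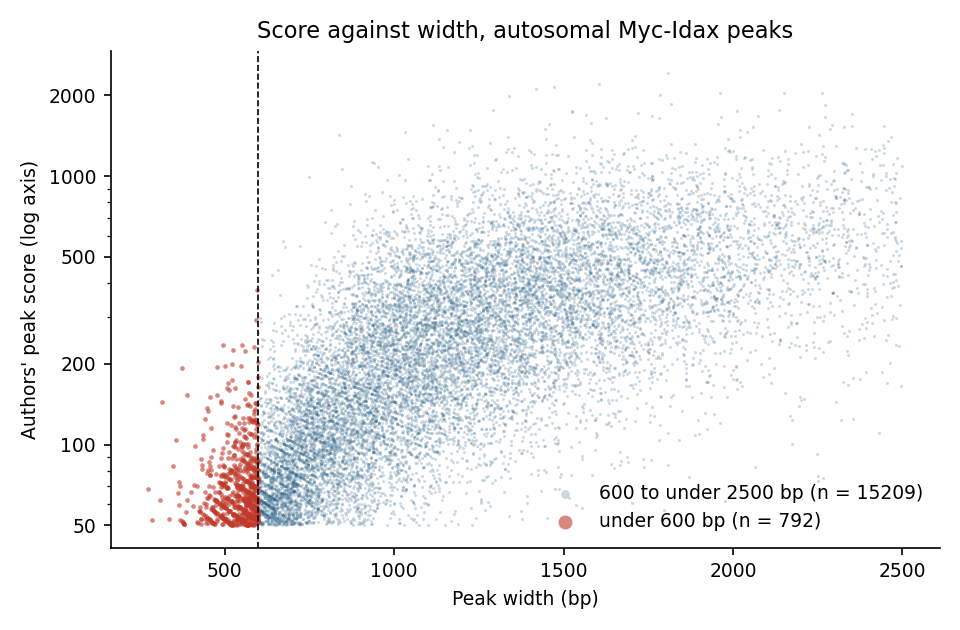
Score (log axis) against peak width for autosomal wild-type peaks, 1 point per peak, with 792 peaks under 600 bp in red, 15209 peaks from 600 to under 2500 bp in blue and the limit as a dashed line. The red points lie mostly under a score of 100 and continue the lower left end of the blue cloud without a break.

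By width, the median score was 60.6 at widths under 400 bp (n = 22), 58.7 at 400 to 449 bp (n = 34), 61.6 at 450 to 499 bp (n = 110), 63.5 at 500 to 549 bp (n = 204) and 63.3 from 550 bp to the limit (n = 422). Beyond the limit it was 67.8 at 600 to 649 bp, 76.8 at 650 to 699 bp and 100.7 at 700 to 799 bp. The medians differed little below the limit and rose beyond it, with no step at the limit itself. Spearman rho of score against width was 0.07 over narrow peaks and 0.73 over middle-width peaks, as a description. Width chose the narrow peaks and no score in the list was below 50.01, so these medians are a description only.

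A few narrow peaks were much stronger than the rest. The highest score belonged to a 596 bp peak on chromosome 20 at 61592621 to 61593216, which scored 376.86 and ranked 4834 in the whole list. Its nearest wider peak, 6776 bp away, scored only 54.05. The next, on chromosome 19 at 56146082 to 56146675, scored 291.73 over 594 bp and had 11 other peaks within 100 kb.

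The other 3 of the 5 strongest lay on chromosome 17. A 550 bp peak at 27507287 to 27507836 scored 235.76, a 494 bp peak at 2627959 to 2628452 scored 234.45, and a 588 bp peak at 2653043 to 2653630 scored 231.6. The last 2 shared a window of 1 Mb, from 2000001 to 3000000, that held 4 narrow peaks among 17. None of the 5 strongest had a wider peak within 2 kb, the nearest being 3009 bp away. The same held for 75.3% of all narrow peaks. Of the 8 narrow peaks scoring 200 or more, 2 did have a wider peak within 2 kb.

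At the other end, the narrowest peak was 275 bp wide, covering 28834235 to 28834509 of chromosome 15, with a score of 68.49 and no other peak closer than 242495 bp. The second, 285 bp on chromosome 8 at 98787275 to 98787559, scored 52.46 and lay 34 bp from a 1658 bp peak of score 420.93. The third, 308 bp on chromosome 20 at 20349096 to 20349403, scored 62.08 and lay 57 bp from another narrow peak. The first of these thus stood alone, the second adjoined a strong wider peak and the third adjoined another narrow one.

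Narrow peaks were found on all 22 autosomes, in numbers that largely followed those of middle-width peaks (Pearson r = 0.83 and Spearman rho = 0.83 over 22 chromosomes, as a description). Chromosome 19 held the most, with 72 narrow peaks, or 9.09% of all narrow peaks against 7.69% of all middle-width peaks. Chromosomes 2, 1 and 12 followed with 53, 51 and 50. Chromosome 21 held the fewest, 7, and chromosome 13 held 9.

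As a share of each chromosome's own peaks, narrow peaks ranged from 3.07% on chromosome 13 (9 of 293, 95% interval 1.41 to 5.75) to 7.76% on chromosome 18 (17 of 219, 4.59 to 12.1). Both of these intervals contain the autosomal share of 4.79%. The interval left that share out on 2 of the 22 chromosomes. Chromosome 1 was below it, with 51 of 1639 peaks (3.11%, 2.33 to 4.07), and chromosome 20 was above it, with 33 of 435 (7.59%, 5.28 to 10.5). The intervals cover counting error for 1 chromosome at a time and were not adjusted for the 22 looked at.

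The share of weak peaks also differed between chromosomes, from 17.4% of peaks under a score of 100 on chromosome 13 to 28.3% on chromosome 21. Over the 22 chromosomes the narrow share rose with the weak share (r = 0.56, rho = 0.60, as a description). Chromosome 21 did not follow this, with a narrow share of 3.41% (7 of 205). The narrow share went more closely with the narrow share among peaks of score under 100 (r = 0.90, rho = 0.91, as a description). These quantities share members, since most narrow peaks are themselves weak. Among peaks of score under 100, narrow peaks made up 19.3% over all autosomes (695 of 3610, 18 to 20.6). Chromosome 20 then had 25.2% (30 of 119, 17.7 to 34), an interval that contains the autosomal share, and chromosome 1 had 14.5% (46 of 317, 10.8 to 18.9), still below it. The part of chromosome copy number in these shares was not tested.

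**Figure D2:**
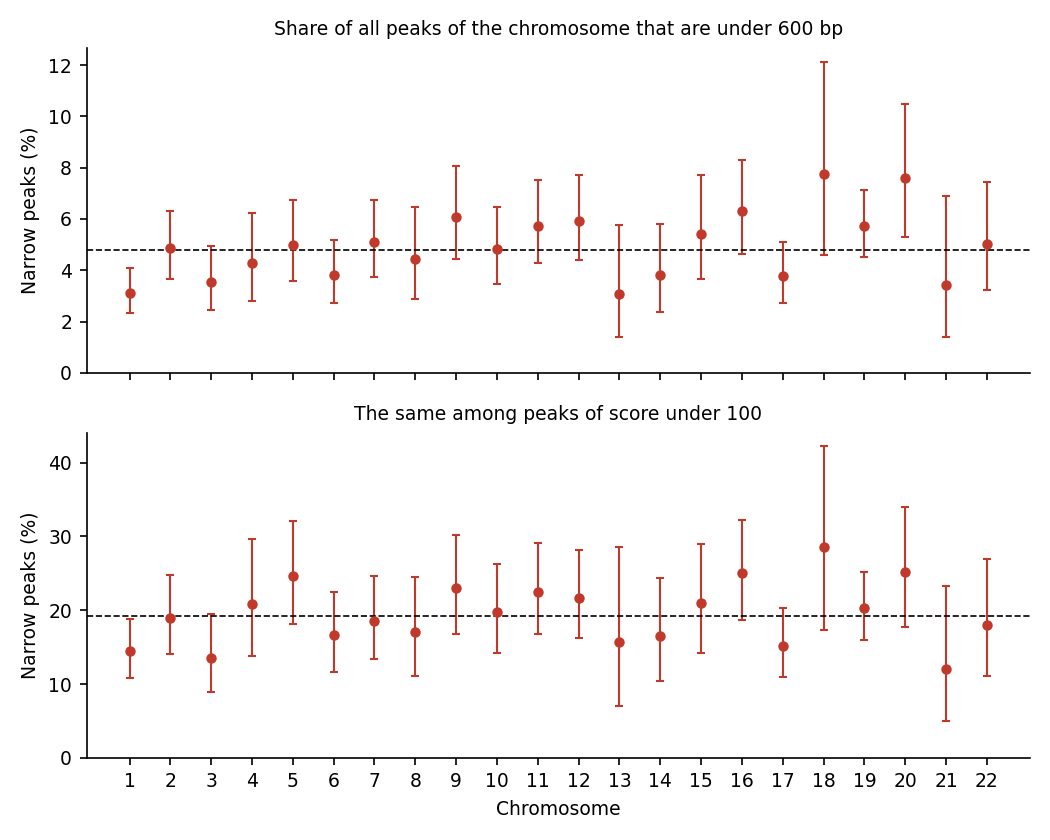
Share of narrow peaks in percent on each autosome, among all peaks (top) and among peaks of score under 100 (bottom), with exact 95% intervals and the share over all autosomes as a dashed line. Chromosome 1 lies below the line in both panels, while the interval of chromosome 20 clears the line only in the top panel.

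Most narrow peaks were not attached to a wider one. A satellite was defined as a peak with the edge of another peak of 600 bp or more within 2 kb, and 196 of 792 narrow peaks were satellites (24.7%, 95% interval 21.8 to 27.9). The other 596 (75.3%, 72.1 to 78.2) had no wider peak within 2 kb. Of those, 35 lay within 2 kb of another narrow peak, and 561 (70.8% of all narrow peaks, 67.5 to 74) had no peak of any width that near. The median gap from a narrow peak to the nearest wider peak was 17088 bp (quartiles 2237 and 59111).

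Measured the same way, 2412 of 15209 middle-width peaks were satellites (15.9%, 15.3 to 16.4), with a median gap of 25072 bp (quartiles 6214 and 68311). The difference of 8.89 percentage points between the classes was not tested, because the gaps come from the list that set the widths. It also went with score. Among peaks of score under 100, satellites made up 24.9% of narrow peaks (173 of 695, 21.7 to 28.3) and 24.7% of middle-width peaks (720 of 2913, 23.2 to 26.3). When middle-width peaks were weighted to the 6 score bands of the narrow peaks, their satellite share was 24.4% and the difference was 0.389 percentage points.

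**Figure D3:**
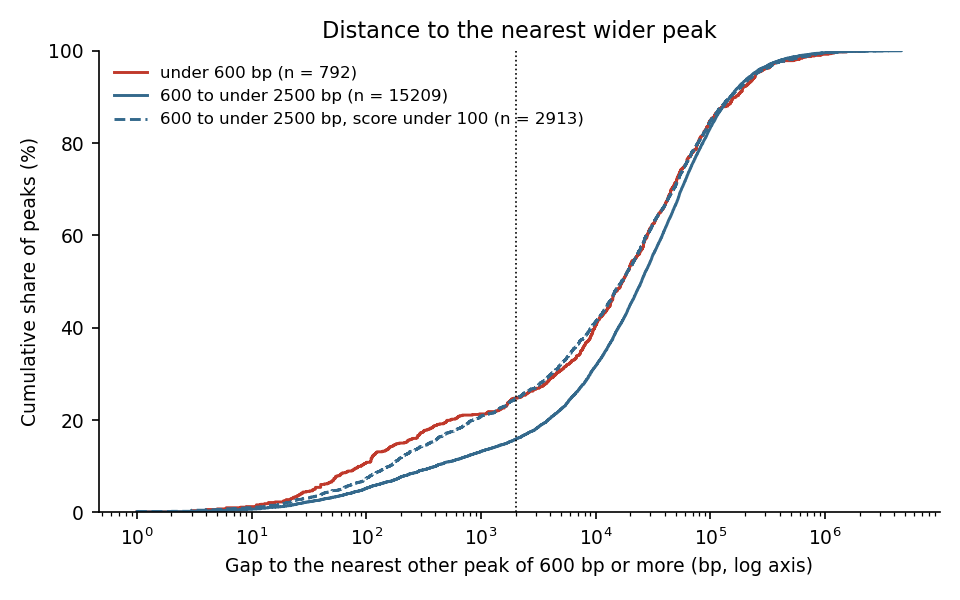
Cumulative share of peaks (percent) by the gap to the nearest other peak of 600 bp or more (bp, log axis), for 792 narrow peaks, all 15209 middle-width peaks and the 2913 of these with a score under 100; the dotted line marks 2 kb. At 2 kb the narrow peaks and the weak middle-width peaks meet at 24.7%, above all middle-width peaks at 15.9%, and at gaps near 100 bp the narrow peaks lead.

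Below a score of 100, the order of the classes changed from band to band. At scores of 50 up to 60, satellites were 22% of narrow peaks (74 of 336, 17.7 to 26.8) and 26.3% of middle-width peaks (174 of 662, 23 to 29.8). At 60 up to 75 they were 30.2% (68 of 225, 24.3 to 36.7) and 24.1% (220 of 911, 21.4 to 27.1). The order of the classes turned between these bands, and the intervals overlapped in both. From 75 up to 100 the shares were 23.1% (31 of 134) and 24.3% (326 of 1340).

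From a score of 100 upwards, the satellite share was higher among narrow peaks in each of the 3 bands. It was 22.9% (16 of 70, 13.7 to 34.4) against 19.2% (413 of 2150, 17.6 to 20.9) at 100 up to 150, and 26.3% (5 of 19, 9.15 to 51.2) against 17.3% (289 of 1668, 15.5 to 19.2) at 150 up to 200. At 200 and over it was 25% (2 of 8, 3.19 to 65.1) against 11.7% (990 of 8478, 11 to 12.4). That last band has no upper end, and its scores reached 376.86 among narrow and 2418.6 among middle-width peaks. Its shares are thus not at like score. The intervals overlapped in each of these bands.

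Over all scores of 100 or more, 23.7% of narrow peaks (23 of 97, 15.7 to 33.4) and 13.8% of middle-width peaks (1692 of 12296, 13.2 to 14.4) were satellites. That pooled comparison is not at like score, since the narrow peaks were gathered in its lowest band. With peaks of any width as neighbours, the weighted comparison kept a difference of 3.57 percentage points, 29.2% of narrow peaks against 25.6%.

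**Figure D4:**
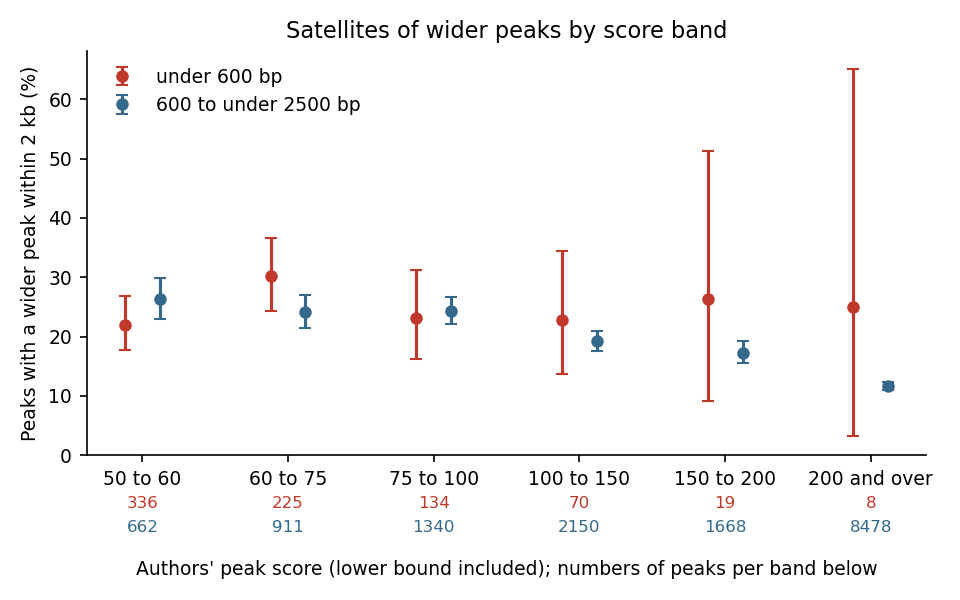
Percent of peaks with a wider peak within 2 kb in 6 bands of the authors' score, narrow peaks in red and middle-width peaks in blue, with exact 95% intervals and the number of peaks in each band under the axis. Below a score of 100 the intervals of the classes overlap in every band, and from 100 upwards the narrow share is the higher one in each band, on 70, 19 and 8 narrow peaks.

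Satellites lay very close to their wider neighbour. The median gap of the 196 narrow satellites was 116 bp (quartiles 45.3 and 382), and 86 of them (43.9%, 36.8 to 51.1) were 100 bp or less away. For the 2412 middle-width satellites the median gap was 215 bp, with 33.1% (31.2 to 35) at 100 bp or less. Below a score of 100, 42.2% of narrow satellites (73 of 173, 34.7 to 49.9) and 30% of middle-width satellites (216 of 720, 26.7 to 33.5) were that close, with median gaps of 118 and 216 bp. The median scores of these satellites were 62.2 and 72.3. In narrower bands, chosen after seeing the data, the median gap was 110 against 204 bp at scores of 50 up to 60, 145 against 232 bp at 60 up to 75 and 150 against 203 bp at 75 up to 100. The narrow satellites had the shorter median gap in these 3 bands, and the difference was not tested. In the same bands, the shares at 100 bp or less were 45.9% against 31%, 41.2% against 26.8% and 35.5% (11 of 31) against 31.6%. The intervals of these shares overlapped in each band.

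The closest satellite was a 588 bp peak of score 66.87 that covered 121758531 to 121759118 of chromosome 6. It was 1 bp from a 1202 bp peak of score 208.98. On chromosome 15, a 336 bp peak at 91073159 to 91073494 (score 52.68) lay 3 bp from a peak of score 103.89. A 514 bp peak on chromosome 12 at 51663304 to 51663817 (score 51.94) lay 3 bp from one of score 193.06. In each of these 3 pairs the wider peak was the stronger.

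The wider neighbour was the stronger one for 172 of 196 narrow satellites (87.8%, 82.3 to 92), and for 114 (58.2%, 50.9 to 65.2) it had at least 2 times the score. Neighbours had a median width of 927 bp and a median score of 182, and the median ratio of their score to that of the satellite was 2.64. All middle-width peaks had a median score of 230, and only 10.3% of them (1573 of 15209) scored under 75. Most wider peaks thus outscored most narrow peaks wherever they lay, so these values do not show unusually strong neighbours. The neighbour was 2500 bp or wider for 4 of the 196 narrow satellites and for 72 of the 2412 middle-width satellites. Peaks that wide made up 3.19% of all autosomal peaks. Among satellites of score under 100 the neighbour was stronger for 91.9% of narrow peaks (159 of 173, 86.8 to 95.5) and for 87.6% of middle-width peaks (631 of 720, 85 to 90). Their median score ratios were 2.83 and 2.53.

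Satellites and other narrow peaks resembled each other in score and width. The median score was 64 for the 196 satellites and 62.2 for the 596 others, and the median widths were 543 and 557 bp. By width, satellites were 31.8% under 400 bp (7 of 22), 14.7% at 400 to 449 bp (5 of 34), 29.1% at 450 to 499 bp (32 of 110), 29.9% at 500 to 549 bp (61 of 204) and 21.6% from 550 bp to the limit (91 of 422). These shares did not change in 1 direction with width. Beyond the limit the share was 21.9% at 600 to 649 bp, 22.9% at 650 to 699 bp and 21% at 700 to 799 bp. There was thus no step at the limit itself, and the share was lower only at larger widths, with 13.6% at 1000 to 1499 bp. By chromosome the satellites among narrow peaks ran from 0 of 7 on chromosome 21 to 4 of 9 on chromosome 13, on few peaks each.

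Some narrow peaks lay beside each other. Another narrow peak was within 2 kb of 39 narrow peaks, of which 4 were also satellites of a wider one. Their median gap was 42 bp and their median score 73.7. A narrow peak as the only neighbour within 2 kb was found for 4.42% of narrow peaks (35 of 792, 3.1 to 6.09) and 1.03% of middle-width peaks (157 of 15209, 0.878 to 1.21). Narrow peaks beside each other are each counted, so they are not independent and the interval for narrow peaks is too tight. Joining peaks within 1 kb would merge 202 of the 792 narrow peaks (25.5%, 22.5 to 28.7) into larger regions. It would also merge 2154 of the 15209 middle-width peaks (14.2%, 13.6 to 14.7). Neither these 2 shares nor those with a narrow peak as the only neighbour are at like score.

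Of the narrow peaks without a wider neighbour, the most isolated covered 24824965 to 24825541 of chromosome 21 and scored 54.55. No other peak lay within 2153668 bp of it. A peak on chromosome 11 at 131867922 to 131868513 (score 114.01) was 1548643 bp from the next, and one on chromosome 18 at 65183844 to 65184417 (score 66.04) was 1197389 bp away. Isolation of this kind was not the rule, since 109 narrow peaks (13.8%, 11.4 to 16.4) had no other peak centre within 100 kb. The share was 16% (2435 of 15209, 15.4 to 16.6) for middle-width peaks.

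Local peak density was much alike around narrow and middle-width peaks. The median number of other peaks with their centre within 100 kb either side was 2 in both classes, with quartiles of 1 and 5 in both. The means were 3.51 and 3.41. At 5 or more neighbours were 28.2% of narrow peaks (223 of 792, 25 to 31.4) and 26.5% of middle-width peaks (4037 of 15209, 25.8 to 27.3), and at 10 or more 7.2% (5.5 to 9.22) and 7.04% (6.63 to 7.45). At 15 or more were 8 narrow peaks (1.01%, 0.437 to 1.98) and 267 middle-width peaks (1.76%, 1.55 to 1.98). Weighted to the score bands of narrow peaks, the mean for middle-width peaks was 3.67, above that of the narrow peaks, so the small difference in means changed direction.

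**Figure D5:**
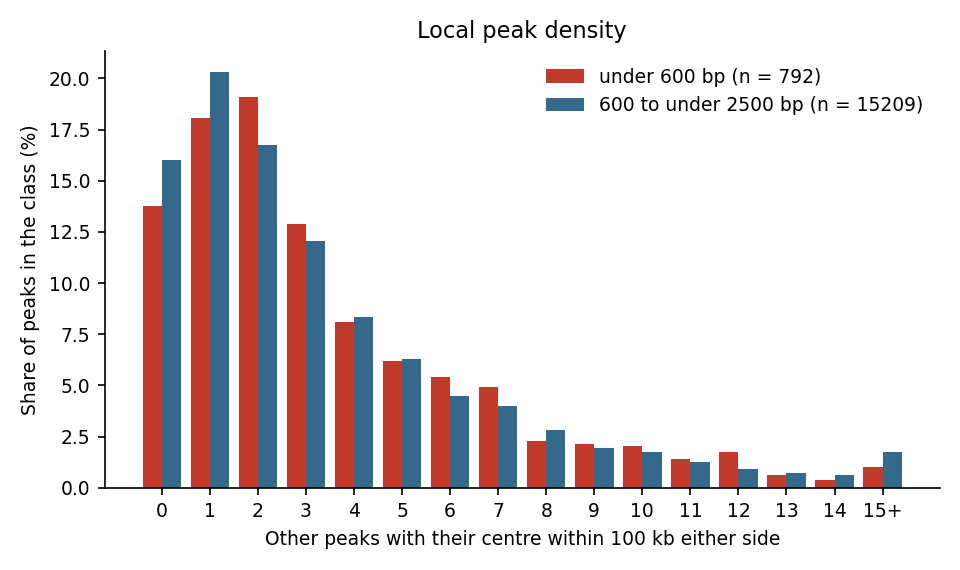
Percent of peaks in each class by the number of other peaks centred within 100 kb either side, 792 narrow peaks in red and 15209 middle-width peaks in blue, with 15 and more in the last bar. Both classes have a median of 2 neighbours, and no neighbour was found for 13.8% of narrow and 16% of middle-width peaks.

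Turned around, the narrow share was similar in sparse and dense surroundings. It was 4.11% among peaks without a neighbour (109 of 2655, 3.38 to 4.93), 4.79% with 1 or 2 (294 of 6133), 4.91% with 3 to 5 (215 of 4375), 5.35% with 6 to 10 (133 of 2487, 4.5 to 6.31) and 4.67% with 11 or more (41 of 878, 3.37 to 6.28). Among peaks of score under 100 it lay between 16.4% and 20.1% in these classes. Density around narrow peaks did vary between chromosomes, with a median of 7 neighbours on chromosome 19 and 1 on chromosomes 6, 18 and 21. Middle-width peaks were not set beside these medians, so the variation is not shown to be particular to narrow peaks. The narrow peak with the most neighbours, 22, covered 46713793 to 46714378 of chromosome 17 and scored 57.77.

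Narrow peaks were spread over 555 of the 2245 autosomal windows of 1 Mb that held any peak. A single narrow peak was present in 398 of these windows, and 50 windows held 3 or more, with 180 narrow peaks in all. The choice of windows to name was made with their values known. The first Mb of chromosome 16 (1 to 1000000) had the most, 8 narrow peaks among 45 (17.8%), followed by chromosome 19 from 1000001 to 2000000 with 7 among 69 (10.1%). Chromosome 22 from 50000001 to 51000000 had 6 among 27 (22.2%), and chromosome 9 from 139000001 to 140000000 had 6 among 42 (14.3%). In a sparser window, on chromosome 8 from 12000001 to 13000000, 4 of 8 peaks were narrow.

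None of the 792 narrow peaks overlapped a peak of the DNA-binding mutant by 1 bp or more. With 3 counts as the limit for a count of 0, counting error alone allows a share of up to 0.379%. The exact 95% interval, as given for the other shares, reaches 0.465%. The overlapped wild-type peaks were 9 of the 15209 middle-width peaks (0.0592%, 95% interval 0.0271 to 0.112) and 1 of the 527 broader ones. With shares this small, a difference between the classes was not detectable. The narrow peak nearest to a mutant peak, on chromosome 2 at 91847804 to 91848303 (score 71.58), was 34456 bp from it and was chosen after its value was seen. Of the 35 autosomal mutant peaks, 28 were themselves under 600 bp, with a median width over all 35 of 295 bp and a median score of 55.3. The lists share the empty-vector control, and scores of separate lists were not compared.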

How the data were processed

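The 2 deposited peak lists, of wild-type Myc-Idax and of Myc-IdaxDBM, each held 5 columns without a header: chromosome, start, end, name and score. Per the labels' design text, sites were detected over empty-vector cells. Bowtie 0.12.7, MACS 1.4.1 and hg19 are named in the submitters' processing notes. How each pair of replicates became 1 list is not stated in these sources. The score is the authors' value, and its scale is not stated. Read depth is unknown, and the number of reads limits which weak sites pass. Empty-vector reads were not analysed here.

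Starts were converted to count from 1. Gaps were measured between peak edges to the nearest other autosomal peak of 600 bp or more, and density by peak centres within 100 kb. Shares have exact Clopper-Pearson 95% intervals, which cover counting error only, and the limit for a count of 0 is 3 counts. Nothing was tested between classes. Calculations were tested on simulated lists. Regions named were, by rule, the 5 strongest, 3 narrowest, 3 with the smallest gap, 3 farthest from any peak, the one with most neighbours, those overlapping a mutant peak and 2 on each side of 600 bp. Members, rule and comparisons were chosen with earlier results of these data known. Alternatives were other width limits, distances, windows, a minimum score of 100 and merging within 1 kb. The work used SciPy 1.17.1, numpy 2.4.6, matplotlib 3.10.9 and pandas 2.3.3 under Python 3.11.15.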

Additional observations from a re-analysis of the deposited data

How the results depend on the processing

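The number of narrow peaks depended on the limit, with 166 under 500 bp, 2208 under 700 bp and 97 at a minimum score of 100; merging within 1 kb left 590. Their median score was 60.9 under 500 bp and 68.6 under 700 bp. The satellite share was 21.3% at 1 kb, 30.8% at 5 kb, 32.5% under 500 bp, 17.5% at a minimum score of 100, which also removes weak neighbours, and 21.7% between centres. With a peak of any width as neighbour, chosen after seeing the data, it was 29.2%. The difference from middle-width peaks was 15.5 percentage points under 500 bp (against peaks of 500 to under 2500 bp), 12.3 with any width, 0.389 after weighting to score bands and 3.57 with both, all 3 chosen after seeing the data. At a minimum score of 100 it was 7.59 (17.5% against 9.94%). Median density was 1 within 50 kb and 6 within 250 kb, in both classes alike. The small difference in mean density (0.0904) was 0.129 within 50 kb and 0.0425 without chromosome 19, and changed sign within 250 kb (-0.00162), counting only peaks of 600 bp or more (-0.0276) and after weighting (-0.163). Chromosomes with an interval that left out the overall share numbered 1 under 500 bp, 1 at a minimum score of 100 and, chosen after seeing the data, 1 among peaks of score under 100. At 1 kb, 5 kb and between centres the satellite difference was 8.15, 8.43 and 9.7 percentage points. Median density was 2 without chromosome 19 and counting only peaks of 600 bp or more, and 0 narrow peaks lay within 1 kb of a mutant peak. CpG and gene context were not run. With 1 list per construct no replicate could be left out, and no paired analysis was possible because the lists carry no replicate numbers.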

Other observations

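The sex chromosomes were outside the rule. On chromosome X, 30 of 550 wild-type peaks were under 600 bp (5.45%, 95% interval 3.71 to 7.7), with a median width of 556 bp and scores from 50.3 to 144.03 (median 59.4). On chromosome Y it was 1 of 11.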
